A study of Mus musculus with 30 samples.

Results

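Dio3, Dio2, Thra and Thrb, the genes for the deiodinases and the nuclear receptors through which cells handle thyroid hormone, were followed in cultured mouse tendon fibroblasts whose contractile machinery had been inhibited. These 4 genes were chosen from measured RNA values of the same libraries, among 35973 gene rows of the RNA table for blebbistatin and 35972 of that for Y27632. Their own differences are therefore given as a description, with no p-value. All 4 passed the filter on low values, a mean normalised count of at least 10. The chromatin site lists added every site that the authors had annotated to a member, which were 2 distinct sites among 16367 entries in 5 lists.

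The cells were primary fibroblasts from mouse tail tendon, with the genotype given as wildtype in all 30 libraries, and all were treated in medium with 0.1% serum. RNA was measured in 3 libraries each of cells given the solvent DMSO, blebbistatin at 10 µM, which blocks non-muscle myosin II, or Y27632 at 30 µM, a kinase inhibitor that lowers contractility. Chromatin accessibility was measured by ATAC in 9 libraries of the same treatments, and 12 further genomic DNA libraries combined doxycycline at 10 ng/mL with blebbistatin, 3 per group. The labels do not say what doxycycline induced, give no assay for those 12 in particular, and state neither the age of the mice, the time of treatment, nor whether replicates came from separate cultures or animals. P-values therefore measure the spread between these libraries, which may be technical.

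Thyroid hormone circulates mainly as the prohormone thyroxine. Type 2 deiodinase, the product of Dio2, converts it inside the cell to the active hormone triiodothyronine, while type 3 deiodinase, the product of Dio3, inactivates both. Receptors encoded by Thra and Thrb bind the active hormone on DNA, usually together with a retinoid X receptor, and recruit corepressors without hormone and coactivators with it. Dio3 is best known from fetal tissue, placenta and regenerating or injured tissue, and is expressed mainly from the paternal copy of an imprinted domain that also holds Dlk1 and Meg3.

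The 9 RNA libraries held 23375386 to 37061737 reads in genes. Of 10 tendon fibroblast markers, among them Scx, Tnmd and Col1a1, none was at 0 in all 9 libraries, and their summed level was 28859 to 33814 CPM, the share of a library's reads scaled to a fixed total, in any library. Most of that sum came from Col1a1, Col1a2 and Col3a1, while Scx stood at 2.07 to 3.18 CPM. By limma, 4 of the 10 rose and 3 fell with blebbistatin, against 26.1% and 26.9% of all genes. With Y27632, 6 rose, against 18.1%. The 6 macrophage and leukocyte markers summed to 224.1 to 247.5 CPM with DMSO, 321.7 to 364.8 with blebbistatin and 326.7 to 372.8 with Y27632. All 6 rose with each treatment by limma, against 26.1% of all genes with blebbistatin and 18.1% with Y27632. The 5 endothelial markers summed to 119.4 to 121.4 CPM with DMSO, 75.44 to 84.5 with blebbistatin and 107.2 to 114.0 with Y27632, with Tek lower by limma under both treatments. Tek alone made up 116.4 to 117.9 CPM with DMSO, so the sum mostly describes that gene. Cdh5 and Kdr changed by 0.30 and 0.60 (log2) with blebbistatin and by 0.34 and 0.41 with Y27632. None of these was called (limma adjusted p of 0.0748 or more). The 6 chondrocyte and bone markers summed to 19.42 to 21.28 CPM with DMSO, 23.83 to 25.32 with blebbistatin and 21.85 to 23.22 with Y27632. Of these, Sox9 was higher by limma under both treatments. The 5 smooth muscle and pericyte markers summed to 77.54 to 85.87, 87.43 to 98.64 and 84.65 to 105.0 CPM in that order. Cspg4 alone made up 70.47 to 79.86 CPM with DMSO and was higher by limma under both treatments. Cnn1 was lower by limma under both (log2 -0.62 and -0.75), and Rgs5 was lower with blebbistatin (log2 -0.52). The 5 keratinocyte markers summed to at most 3.28 CPM in any library. Skeletal muscle markers summed to at most 1.3 CPM, with Myod1 and Ckm at 0 in all 9 libraries. The part of these marker differences in the results below was not tested. In bulk RNA, fewer cells of a type and less RNA per cell cannot be told apart.

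Dio3, the inactivating deiodinase, was far lower with blebbistatin and moderately lower with Y27632. Its normalised counts, which are reads divided by a factor for each library, were 351.5, 420.3 and 394.0 with DMSO and 51.94, 40.29 and 49.61 with blebbistatin. The group means were 388.6 ± 34.7 and 47.3 ± 6.17 (SD, n = 3). Every blebbistatin library lay far below every DMSO library. The log2 change was -3.02 with a standard error (SE) of 0.125, an 8.09-fold lower level, and only 7 of 14882 genes had a lower change. In the table scaled for Y27632, Dio3 stood at 365.4, 436.3 and 409.5 with DMSO and at 239.8, 174.4 and 237.9 with Y27632. The groups again did not overlap, with a log2 change of -0.90 and a standard error of 0.116, or 1.87-fold lower. There, 215 of 14833 genes had a lower change.

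Dio2, the activating deiodinase, went the other way. Normalised counts were 56.59, 61.78 and 79.27 with DMSO and 436.3, 388.1 and 432.7 with blebbistatin, or means of 65.9 ± 11.9 and 419.0 ± 26.9 (SD, n = 3). All 3 blebbistatin libraries exceeded the highest DMSO library several times over. The log2 change was 2.66 (SE 0.126), a 6.34-fold higher level, and 24 of 14882 genes had a higher change. With Y27632 the counts were 152.6, 162.0 and 175.0, against 58.84, 64.13 and 82.37 with DMSO in that table. These groups did not overlap either, and the log2 change was 1.25 (SE 0.14), or 2.39-fold higher. In that comparison 92 of 14833 genes had a higher change.

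Both contrasts share the 3 DMSO libraries, so the treatments were also set directly against each other on reads of the 9 libraries scaled together. Dio3 was lower with blebbistatin than with Y27632 by a log2 difference of -2.14, and Dio2 was higher by 1.43. DESeq2 put the same differences at -2.15 with a standard error of 0.174 and at 1.42 with a standard error of 0.125. For both genes, the blebbistatin and Y27632 libraries did not overlap. On the CPM scale, Dio3 thus ordered as DMSO (14.6 ± 1.31), Y27632 (7.89 ± 1.35) and blebbistatin (1.78 ± 0.223), and Dio2 in the opposite order, at 2.48 ± 0.452, 5.92 ± 0.389 and 15.8 ± 0.926 (mean ± SD, n = 3). No neighbours in either order overlapped.

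**Figure D1:**
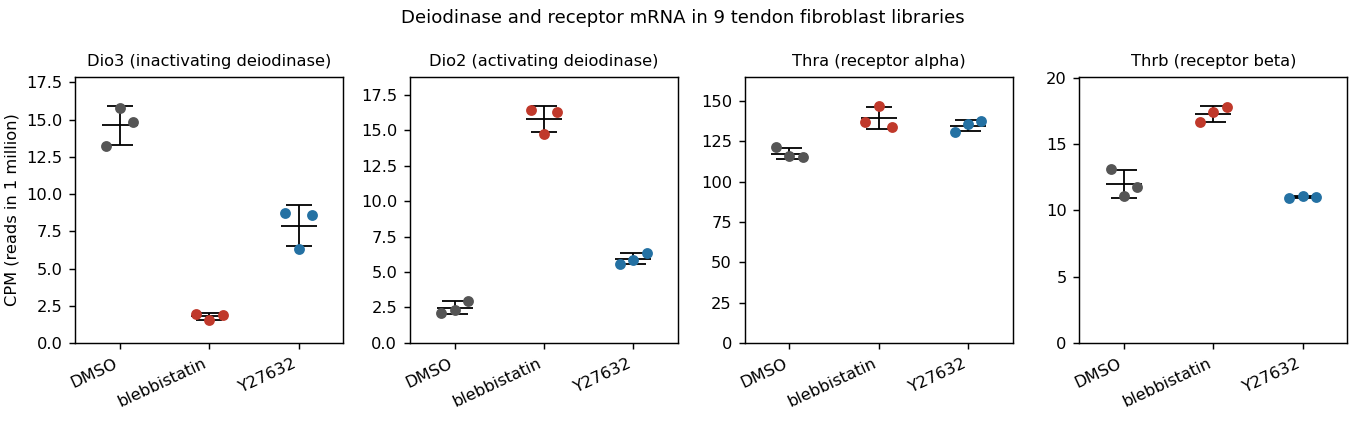
CPM (linear axes from 0, 9 libraries scaled together) of each gene by treatment. Each point is 1 library, the wide bar is the mean and the capped bars are ± 1 SD (n = 3). Dio3 has a mean of 14.6 with DMSO and 1.78 with blebbistatin, Dio2 one of 2.48 and 15.8, and the receptors differ less between groups.

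The ratio of Dio2 to Dio3 reads needs no scaling between libraries. It is not a ratio of molecules, since the transcripts differ in length, and was compared between groups only. It was 0.161, 0.147 and 0.201 with DMSO, 0.636, 0.929 and 0.736 with Y27632, and 8.4, 9.63 and 8.72 with blebbistatin. Equal reads do not mean equal molecules, so a crossing of that point between groups is not read as a switch in the more abundant mRNA. The mean log2 ratio was -2.57 ± 0.233 with DMSO, -0.40 ± 0.275 with Y27632 and 3.15 ± 0.102 with blebbistatin (SD, n = 3). Against DMSO the ratio was 4.5-fold higher with Y27632 and 52.9-fold higher with blebbistatin. The thinnest counts behind it were 49 to 54 Dio3 reads per blebbistatin library and 56 to 69 Dio2 reads per DMSO library.

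**Figure D2:**
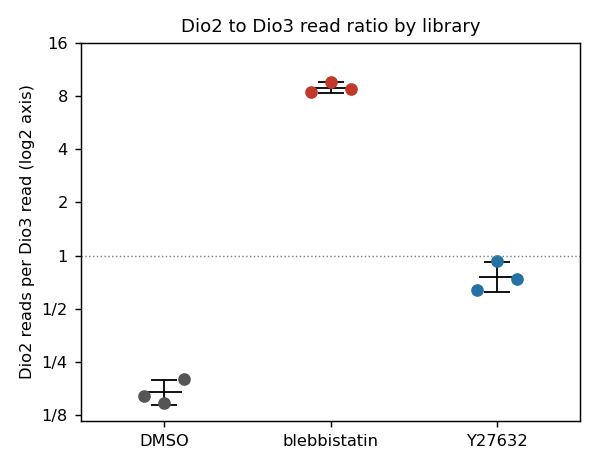
Dio2 reads per Dio3 read in each library, on a log2 axis. Points are libraries, and wide bars are means on the log scale with ± 1 SD (n = 3). The dotted line marks equal reads, not equal molecules. The 3 blebbistatin libraries lie between 8.4 and 9.63, and the DMSO libraries between 0.147 and 0.201.

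The sequences just upstream of both deiodinase genes are shown because their mRNAs stood in opposite orders across the same libraries. They are the 250 bases before each start in RefSeq on GRCm38.p6, in which Dio2, Dio3 and Thrb had an entry and Thra did not. Capitals mark matches, on either strand, to the motifs searched: the TEAD core GGAATG, the cyclic AMP response element TGACGTCA, the AP-1 word TGANTCA, the TATA box word TATAAA, the box named CCAAT, the GC box GGGCGG and the thyroid hormone response element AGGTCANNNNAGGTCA. The Dio2 stretch is chr12:90739039-90739288 on the minus strand, and the Dio3 stretch is chr12:110278980-110279229 on the plus strand.
Dio2: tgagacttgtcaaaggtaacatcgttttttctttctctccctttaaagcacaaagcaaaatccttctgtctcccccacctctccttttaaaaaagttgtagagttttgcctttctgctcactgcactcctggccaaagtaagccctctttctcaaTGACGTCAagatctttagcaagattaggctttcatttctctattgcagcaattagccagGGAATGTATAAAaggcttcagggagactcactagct
Dio3: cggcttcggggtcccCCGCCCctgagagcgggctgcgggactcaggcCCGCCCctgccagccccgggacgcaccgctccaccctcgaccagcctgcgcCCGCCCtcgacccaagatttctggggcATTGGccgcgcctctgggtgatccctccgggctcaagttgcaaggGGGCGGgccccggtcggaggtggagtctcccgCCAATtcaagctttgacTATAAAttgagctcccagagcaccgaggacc

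The Dio2 stretch was 41.6% G and C and the Dio3 stretch 69.6%, against a median of 52.4% over all promoters of the table. Dio2 held 1 TGACGTCA, a word found in 1.55% of the 32851 promoters of that length, 95 to 88 bases before the start. It also held 1 GGAATG, at 36 to 31 bases before the start and directly beside its TATAAA, and these 2 words occurred in 12.6% and 12.4% of promoters. Dio3 held 1 TATAAA, 2 CCAAT and 4 GGGCGG, the last 2 words being present in 33.8% and 32.7% of promoters. Neither stretch held TGANTCA (6.75% of promoters) or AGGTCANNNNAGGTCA (0.0152%). None of the authors' listed sites lay over either stretch.

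The receptor genes differed less. Thra, the gene for receptor alpha, had normalised counts of 3226.9, 3073.3 and 3054.6 with DMSO and 3642.8, 3874.9 and 3563.0 with blebbistatin, a log2 change of 0.24 (SE 0.0397.) With Y27632 it stood at 3594.7, 3734.2 and 3800.7 against 3354.7, 3190.5 and 3174.3, a log2 change of 0.20 (SE 0.0356.) Neither treatment overlapped DMSO, while blebbistatin and Y27632 overlapped each other and differed by a log2 of 0.06. The annotated span of Thra overlaps that of Nr1d1, the clock repressor on the opposite strand, by 1075 bases. Whether the counting used strand is not given in the sources used here, so reads in the overlap may belong to either gene. Nr1d1 rose by 0.29 with blebbistatin (SE 0.0417, limma adjusted p = 8.6e-05) and fell by 0.28 with Y27632 (SE 0.0472, limma adjusted p = 0.00047). The reads do not separate the hormone-binding and non-binding splice forms of Thra.

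Thrb, the gene for receptor beta, was higher with blebbistatin and close to DMSO with Y27632. Its normalised counts were 348.5, 294.5 and 312.5 with DMSO and 442.5, 459.6 and 475.0 with blebbistatin, a log2 change of 0.53 (SE 0.076), or 1.44-fold. All 3 blebbistatin libraries lay above all 3 DMSO libraries. With Y27632 the counts were 300.7, 305.5 and 304.0 against 362.3, 305.8 and 324.7, a log2 change of -0.12 (SE 0.0777.) There the groups only just failed to overlap, since the highest Y27632 library and the lowest DMSO library differed by less than 1 normalised count. With the 9 libraries scaled together they did overlap, at 10.94 to 11.09 CPM with Y27632 and 11.07 to 13.11 with DMSO. Between the treatments, Thrb was higher with blebbistatin by 0.67 (log2), or 0.66 with a standard error of 0.0967 by DESeq2.

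Groups without overlap were common among all genes: 60.2% of genes with blebbistatin, 48.1% with Y27632 and 60.1% between the treatments. The absence of overlap of the members with DMSO, which for Thrb with Y27632 depended on the scaling, is read against those shares, and the selection used these contrasts. The authors' deposited tables gave a log2 change for Dio3 of -3.05 with a standard error of 0.171 under blebbistatin and -0.89 with a standard error of 0.13 under Y27632. For Dio2 the authors' deposited tables gave 2.68 (standard error 0.159) and 1.26 (standard error 0.192).

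Genes whose level followed that of a member most closely were ranked by Pearson's r of log2 CPM over the 9 libraries, among 11465 genes with a mean of at least 100 reads. Pdlim1, which encodes an actin-associated protein, and Foxk2, a forkhead factor, were nearest to Dio3 with r = 0.9963 and 0.9962. Gng12, Vezf1 and Acsl4 followed, with r = 0.9959, 0.9956 and 0.9949. Dio2 had r = -0.9604 with Dio3. The closest to Dio2 were Atp6v0d1, a subunit of the vacuolar proton pump, at 0.9985, the lysosomal membrane protein Lamp2 at 0.9953 and the matrix protein Edil3 at 0.9943. For Thra they were Kctd1 (0.9885), Tmco4 (0.9800) and Dact2 (0.9791), and for Thrb Arhgap27 (0.9918), Pfkm (0.9903) and Tshz1 (0.9903). The 9 points share libraries and fall into 3 treatment groups, so these values describe how genes ordered the groups.

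The rest of the pathway was described with 69 other genes in 7 lists. Of 50 of them tested with blebbistatin, 13 rose (26% against 26.1% of all genes) and 21 fell (42% against 26.9%), by limma with Benjamini-Hochberg adjustment over all genes. With Y27632, 11 of 49 rose (22.4% against 18.1%) and 14 fell (28.6% against 17.8%). Between the treatments, edgeR's quasi-likelihood test called 14 of 51 higher with blebbistatin (27.5% against 26.5%) and 15 lower (29.4% against 25.8%). The median log2 change of the tested list genes was -0.10 with blebbistatin and -0.07 with Y27632, with all genes at 0.00 in both. The 18 list genes that were in the tables but under the filter in both include Dio1, the third deiodinase, with 3 reads in 9 libraries, and Ttr, Serpina7 and Nkx2-1, with 0 reads in 254647454, which allows up to 3 reads by counting error alone. Of 10 thyroid gland genes only Tg, the hormone's precursor protein, passed the filter against DMSO, and it fell with blebbistatin by 0.87 (SE 0.234, limma adjusted p = 0.00782, but adjusted p = 0.0603 by DESeq2) and changed by -0.57 with Y27632 (limma adjusted p = 0.0599). March6, a ubiquitin ligase for type 2 deiodinase, was not matched to a row.

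Carriers of the hormone across the cell membrane changed in both directions. All 6 tested carriers changed with blebbistatin, 2 higher and 4 lower, with a median log2 change of -0.45. Among all genes, 26.1% were called higher and 26.9% lower. Slc7a5, the light chain of a large neutral amino acid carrier that also takes thyroid hormone, had 7209.6 ± 200.1 normalised counts with DMSO and 2719.0 ± 65.7 with blebbistatin (SD, n = 3), a fall of 1.41 on the log2 scale (SE 0.0342, limma adjusted p = 1.76e-11). It fell with Y27632 too, by 0.72 (SE 0.0381, limma adjusted p = 1.75e-08), and its level was lower with blebbistatin than with Y27632 (log2 -0.67, edgeR adjusted p = 3.72e-09). Its sister chain Slc7a8 changed by -0.63 and -0.70, and their common heavy chain Slc3a2 by -0.27 and -0.26, each a fall by limma with blebbistatin and with Y27632 respectively.

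Slc16a10, a carrier of aromatic amino acids and thyroid hormone, rose by 0.80 with blebbistatin (SE 0.0906, limma adjusted p = 1.09e-05) and was 1.13 (log2) higher with blebbistatin than with Y27632 (edgeR adjusted p = 1.6e-07). Against DMSO, Slc16a10 had a change of -0.32 with Y27632 (limma adjusted p = 0.0308, but 0.0847 by DESeq2). That call no longer held when DMSO replicate 2 or 3 or Y27632 replicate 1 or 2 was left out, at changes of -0.34, -0.24, -0.32 and -0.24 and limma adjusted p of 0.0519, 0.12, 0.0615 and 0.118. The thyroxine carrier Slco1c1 fell by 0.83 with blebbistatin (SE 0.207, limma adjusted p = 0.00491).

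Deiodinases are selenoproteins, and type 2 deiodinase is also marked for destruction by ubiquitin. Of 9 tested genes for selenocysteine insertion and deiodinase turnover, 1 rose and 2 fell with blebbistatin, and 2 rose and 2 fell with Y27632. Among all genes, 26.1% rose and 26.9% fell with blebbistatin, and 18.1% rose and 17.8% fell with Y27632. Usp20, which removes ubiquitin from type 2 deiodinase, rose by 0.19 with blebbistatin (SE 0.0487, limma adjusted p = 0.00539). With Y27632 Usp20 changed by -0.13 and was not called (limma adjusted p = 0.0585). Wsb1, the adaptor that targets the enzyme to ubiquitin ligase, rose by 0.29 with Y27632 (SE 0.0485, limma adjusted p = 0.000472) and changed by 0.09 with blebbistatin (limma adjusted p = 0.108). Without DMSO replicate 3 or blebbistatin replicate 2, that blebbistatin change was 0.13 in each case and was called (limma adjusted p = 0.0271 and 0.0267). Protein was not measured, and turnover of the enzyme was not tested.

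Among 13 tested receptor partners and cofactors, 5 rose and 3 fell with blebbistatin, while 4 rose and 2 fell with Y27632. The shares of all genes were 26.1% and 26.9% with blebbistatin and 18.1% and 17.8% with Y27632. Rxra, a dimer partner of the receptors, rose by 0.47 with blebbistatin (SE 0.0316, limma adjusted p = 1.05e-07). With Y27632 it changed by 0.04 (limma adjusted p = 0.326), and the treatments differed by 0.43 (edgeR adjusted p = 2.39e-08). The paired corepressor subunits Tbl1x and Tbl1xr1 went apart with blebbistatin, by -0.47 (SE 0.0302) and 0.42 (SE 0.0426), with limma adjusted p of 5.86e-08 and 4.01e-06. Hdac3, the deacetylase of that complex, rose by 0.16 with blebbistatin and 0.23 with Y27632 (limma adjusted p = 0.000992 and 0.000166). Med1, a coactivator subunit, rose by 0.28 with Y27632 (SE 0.0429, limma adjusted p = 0.000229).

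Of 7 tested genes known to respond to the hormone in other tissues, 3 rose and 3 fell with blebbistatin, and with Y27632 2 of 6 rose and 2 fell. The shares of all genes were 26.1% and 26.9% with blebbistatin and 18.1% and 17.8% with Y27632. Klf9, a direct receptor target in several tissues, rose from 1363.1 ± 7.34 to 1849.6 ± 46.6 normalised counts with blebbistatin (log2 0.44, SE 0.0382, limma adjusted p = 1.01e-06). With Y27632 it rose by 0.37 (SE 0.0374, limma adjusted p = 7.38e-06), and it was not called between the treatments by edgeR (log2 0.08, adjusted p = 0.0687). Hr, a corepressor gene induced by the hormone in brain, rose by 0.28 with blebbistatin (SE 0.0639, limma adjusted p = 0.00312) and changed by -0.07 with Y27632 (limma adjusted p = 0.494). Ppargc1a, a regulator of mitochondrial genes, went from 40.7 ± 2.18 to 125.6 ± 13.9 normalised counts with blebbistatin, a rise of 1.60 (log2, SE 0.145, limma adjusted p = 1.46e-06). With Y27632 it changed by 0.26 (SE 0.18, limma adjusted p = 0.279) and was not called.

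Me1 and Atp2a2, which the hormone is known to raise in liver and heart, fell with both treatments. Me1, the malic enzyme, fell by 0.43 with blebbistatin (SE 0.0402, limma adjusted p = 2.02e-06) and by 0.18 with Y27632 (SE 0.0297, limma adjusted p = 0.000472). Atp2a2, a calcium pump of the sarcoplasmic and endoplasmic reticulum, fell by 0.27 and 0.39 (limma adjusted p = 2.91e-05 and 4.55e-06). Bcl3 fell by 0.43 with blebbistatin (SE 0.116, limma adjusted p = 0.00822) and rose by 0.81 with Y27632 (SE 0.0913, limma adjusted p = 1.97e-05). The list as a whole therefore had no single direction, with medians of 0.28 and 0.10 under the 2 treatments.

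**Figure D3:**
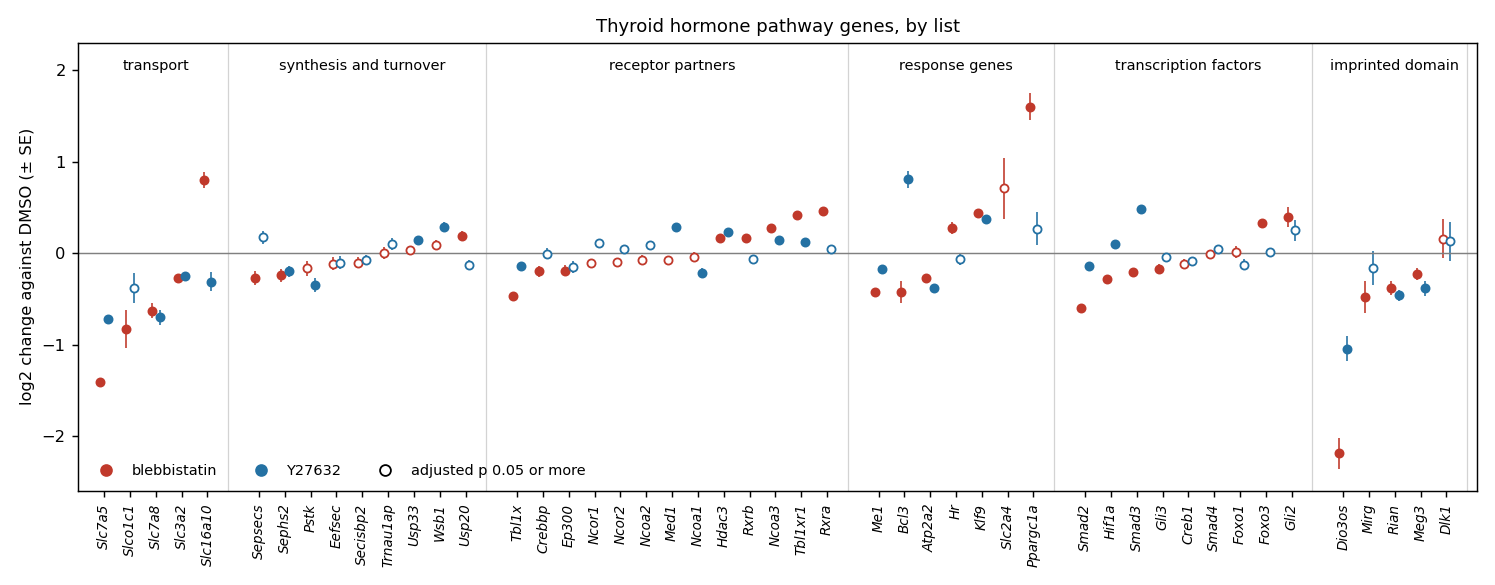
Log2 change against DMSO (± SE) of tested genes of 6 pathway lists, blebbistatin in red and Y27632 in blue, with open circles where the limma adjusted p is 0.05 or more. Slc7a5 (-1.41) and Dio3os (-2.19) lie lowest with blebbistatin, Ppargc1a (1.60) highest, and most other genes lie within 1 log2 unit of 0.

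Transcription factors known to act on Dio3 or Dio2 were tested as a list of 9 genes. Of these, 2 rose and 4 fell with blebbistatin and 2 rose and 1 fell with Y27632. The shares of all genes were 26.1% and 26.9% with blebbistatin and 18.1% and 17.8% with Y27632. Smad2 and Smad3, which carry the transforming growth factor beta signal that induces Dio3 in other cells, fell with blebbistatin by 0.60 (SE 0.0378, limma adjusted p = 5.15e-08) and 0.21 (SE 0.0327, limma adjusted p = 0.000186). With Y27632 Smad2 fell by 0.14 (SE 0.0361, limma adjusted p = 0.00813), and Smad3 rose by 0.48 (SE 0.0384, limma adjusted p = 9.31e-07). Foxo3, a factor that induces Dio2 in muscle, rose by 0.33 with blebbistatin (SE 0.0421, limma adjusted p = 2.86e-05) and changed by 0.01 with Y27632 (limma adjusted p = 0.887). Gli2, an effector of the hedgehog signal that induces Dio3 in skin, rose by 0.40 with blebbistatin (SE 0.107, limma adjusted p = 0.00819).

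Dio3 lies at chr12:110279230-110281097 on GRCm38, at the distal end of the imprinted domain. Dio3os is a noncoding RNA gene on the opposite strand, and the nearest edge of its annotated span lies 1161 bases before the Dio3 start. Its normalised counts were 174.7, 220.6 and 203.3 with DMSO and 43.63, 52.62 and 33.99 with blebbistatin, a fall of 2.19 on the log2 scale (SE 0.166, limma adjusted p = 2.97e-07). With Y27632 they were 118.0, 100.1 and 83.86 against 181.7, 229.0 and 211.3, a fall of 1.04 (SE 0.135, limma adjusted p = 6.39e-05). Neither treatment overlapped DMSO, which also held for 60.2% of all genes with blebbistatin and 48.1% with Y27632. Dio3os was lower with blebbistatin than with Y27632 (log2 -1.15, edgeR adjusted p = 9.03e-05). Its r with Dio3 over the 9 libraries was 0.9434. The other nearest genes gave little: Mir1247 had 0 reads in these poly(A) libraries, Gm6988 had at most 8 reads in a library, and Gm9063 was not in the tables.

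The maternally expressed noncoding RNAs further along the domain differed less than Dio3os. Rian fell by 0.38 with blebbistatin (SE 0.0766, limma adjusted p = 0.00111) and by 0.46 with Y27632 (SE 0.0635, limma adjusted p = 0.0001). Meg3 fell by 0.23 with blebbistatin (SE 0.0691, limma adjusted p = 0.0142) and by 0.39 with Y27632 (SE 0.0786, limma adjusted p = 0.00198). Leaving out DMSO replicate 3 or blebbistatin replicate 3 ended the blebbistatin call on Meg3, at changes of -0.16 and -0.19 and limma adjusted p of 0.057 and 0.0553. Dlk1, a paternally expressed gene at the other end, changed by 0.16 and 0.13 and was not called (limma adjusted p = 0.556 and 0.677). Of 5 tested domain genes, 4 fell with blebbistatin and 3 with Y27632, against 26.9% and 17.8% of all genes. Both counts include Dio3os, the neighbour of the selected gene Dio3, and Meg3. Gm40576, a noncoding RNA gene 41829 bases upstream of Dio3, was picked after its values were seen. It had 24, 20 and 19 reads with DMSO, 6, 12 and 2 with blebbistatin and 21, 12 and 18 with Y27632, in libraries of unequal depth. Its normalised counts were 23.83, 22.06 and 21.83 with DMSO and 6.232, 9.866 and 1.838 with blebbistatin. In the table scaled for Y27632 they were 24.77, 22.9 and 22.68 with DMSO and 15.79, 10.63 and 18.87 with Y27632.

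No site in either ATAC list was annotated to a member. The authors listed 970 ATAC sites with blebbistatin and 207 with Y27632, about 1.54% and 0.335% of the sites they tested, the number tested being estimated from the deposited p and FDR values. In the doxycycline experiment, the authors' deposited tables listed 1231 sites for blebbistatin without doxycycline (1.78%), 7613 for doxycycline alone (9.36%) and 6346 for blebbistatin with doxycycline (8.75%). These tables hold group means and no values per library, so no spread or test is given for a site here. The smallest absolute log2 fold listed was 1.24 for ATAC with blebbistatin and 1.11 for ATAC with Y27632. It was 1 in each list of the doxycycline experiment. A site that is not listed may therefore still differ by less.

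Both annotated sites appeared in the doxycycline lists, 1 for Dio2 and 1 for Thrb, with none for Dio3 or Thra. The Dio2 site, chr12:90792836-90793074 on mm10, is intergenic and 53917 bases upstream of the gene. In the authors' deposited table its log2 signal was 5.16 with neither drug and 6.16 with doxycycline, a log2 fold of 1.0 (FDR 0.00125). That fold is at the lower edge of those listed there. In the authors' deposited table for blebbistatin with doxycycline it stood at 4.90 against the same 6.16, a log2 fold of -1.26 (FDR 1.97e-05). The Thrb site, chr14:17436102-17436292, is intergenic and 224763 bases upstream. Its values in the authors' deposited tables were 4.40 with neither drug, 5.50 with doxycycline and 4.15 with both, with log2 folds of 1.10 (FDR 0.00221) and -1.36 (FDR 0.000102). Both lists share the doxycycline group, and 95.8% of the first list's sites were higher while 99.8% of the second's were lower, so each member's site had the direction of nearly all listed sites.

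Sites near Dio3 that the authors had annotated to other genes were looked at after their values were seen. A pair of intergenic sites lay about 209 and 213 kb upstream of the Dio3 start, with the noncoding gene 3110009F21Rik as the authors' nearest gene. The nearer site, chr12:110070522-110070835, had an ATAC log2 signal of 6.99 with DMSO and 5.21 with blebbistatin in the authors' deposited table, a log2 fold of -1.79 (FDR 0.00436). For Y27632 the authors' deposited table gave 6.90 and 5.60, a log2 fold of -1.30 (FDR 0.0228). The other site, chr12:110066444-110066930, had log2 folds of -1.64 (FDR 0.0237) and -1.30 (FDR 0.0317) in the authors' deposited tables for blebbistatin and Y27632. These lists share the DMSO libraries, and 98.2% and 85% of their sites were lower.

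The same places were listed in the separate doxycycline experiment. Without doxycycline, the authors' deposited table gave log2 folds with blebbistatin of -1.61 (FDR 2.68e-06) at chr12:110070518-110070865 and -1.38 (FDR 9.64e-06) at chr12:110066178-110066888. With doxycycline present, the nearer site had a log2 fold of -1.01 (FDR 4.51e-08) in the authors' deposited table, and the other was not listed. Of the sites in those lists, 99% and 99.8% were lower. For doxycycline alone, the authors' deposited table listed 7 sites within 500 kb of Dio3 as higher, with log2 folds of 1.06 to 1.86. Among them, chr12:110063099-110063290 lay 216.0 kb upstream of Dio3, close to the pair, with a log2 fold of 1.84 (FDR 1.49e-09). Neither of the pair was listed, but that list holds no absolute log2 fold under 1, so a smaller change would not appear. In the 2 blebbistatin lists, the nearer site stood at 7.30 with neither drug and 8.13 with doxycycline alone. That difference between lists was not tested. The reads of 3110009F21Rik were at most 3 in a library, so its RNA could not be compared at this depth.

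The ATAC blebbistatin list gives matches to a TEAD motif, the DNA word bound by the partners of Yap and Taz. The site 213 kb upstream of Dio3 held 2 matches and the nearer site held 0. Both words are shown as the authors' deposited table prints them, with capitals marking the whole match. The first holds the reverse complement of the TEAD core GGAATG and the second holds GGAATG itself, so both contain the same core.
Upstream site, minus strand: GAGCATTCCT
Upstream site, plus strand: AGGAATGCAG
At least 1 such match was present in 603 of the 970 listed sites, or 62.2%, so a match there is common. Which gene these sites act on was not measured.

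**Figure D4:**
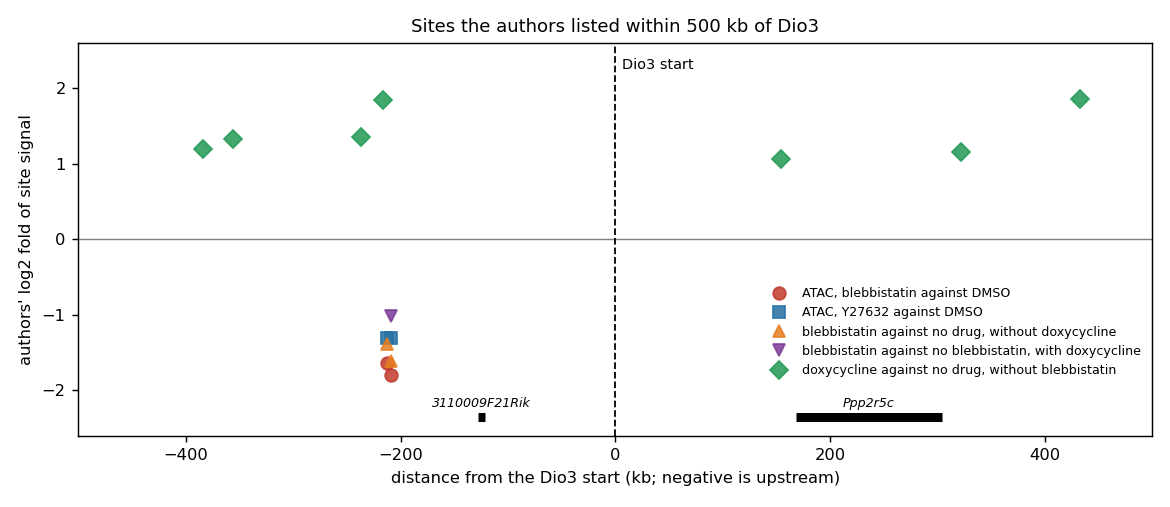
The authors' log2 fold of site signal (y axis) at sites listed within 500 kb of Dio3, by distance from the Dio3 start in kb (x axis), with a symbol for each of the 5 comparisons and black bars for genes. All points for blebbistatin and Y27632 cluster about 209 to 213 kb upstream, at log2 folds of -1.01 to -1.79, and those for doxycycline alone lie above 0.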

How the data were processed

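RNA values per gene and library are a normalised count signal that the authors deposited, counts divided by 1 size factor per library and scaled separately in 2 tables. The division was inferred here, since 100% of nonzero values came out as whole reads within 0.01 of a read and the DMSO reads were identical in both tables. The log2 fold changes and their standard errors in those tables are the authors', per the file headers. Site lists hold log2 group means, log2 folds, FDR and p-value columns, the distance to the nearest start as another annotation, and a GC fraction not used here, per the file headers. The submitters' processing notes name mm10, HISAT2, Picard, featureCounts, DESeq2, Bowtie2, SAMtools, MACS2, DiffBind and HOMER. Annotation and use of strand are not given in the sources used here.

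The members and lists were chosen with earlier results of these data known, so members get no p-value and lists are counted beside all genes. Contrasts with DMSO used limma (version 3.58.1, R 4.3.3), trend option on, with log2(normalised count + 1) of genes whose mean was at least 10, called at a Benjamini-Hochberg adjusted p under 0.05. That scale understates the change of low genes. For blebbistatin against Y27632, edgeR 4.0.16 was run on the reads of all 9 libraries (TMM scaling, filterByExpr, quasi-likelihood test). DESeq2 1.42.0 was an alternative. Named genes are the members, tested list genes with the largest changes first, the genes most like each member (5 for Dio3, 3 for the others) and the 2 nearest genes on each side of Dio3. Levels were not compared between genes, because no transcript lengths were used here. Of 73 list genes, members included, 72 were in the tables. The doxycycline list heads its reference column as blebbistatin without doxycycline. At 13 shared sites that column lay -0.13 (mean, log2) from the untreated group and 1.12 from the blebbistatin group, so it was read as untreated. Some list genes that meet the naming rule are counted in their lists but are not reported by name here.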

Additional observations from a re-analysis of the deposited data

How the results depend on the processing

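The members kept their directions under every alternative run: other pseudocounts, no filter, edgeR and DESeq2, all 9 libraries scaled together, and each library left out in turn. Without 1 library, the log2 change of Dio3 ranged from -3.09 to -2.91 with blebbistatin and from -0.98 to -0.75 with Y27632, and that of Dio2 from 2.56 to 2.80 and from 1.15 to 1.39. The small Thrb difference with Y27632 ranged from -0.18 to -0.06. The number of list genes called was 34 with blebbistatin, 25 with Y27632 and 29 between the treatments, and without 1 library it ranged from 30 to 37, from 22 to 24 and from 24 to 29. The replicate block gave 34, 23 and 30, and same-numbered libraries had correlations of -0.122 to 0.0606 in their deviations, so the numbers were not taken as pairs. Samples did not all correlate best with their own number. Under the other alternatives the counts ranged from 31 to 34, from 23 to 27 and from 27 to 33. DESeq2 called 31, 23 and 27 list genes and kept 31, 22 and 27 of the calls above. Among the genes named with values, it lost the calls on Tg with blebbistatin (-0.90, adjusted p = 0.0603) and on Slc16a10 with Y27632 (-0.32, adjusted p = 0.0847). Foxo3, not called with Y27632, changed sign without DMSO replicate 3 and without Y27632 replicate 2, and ranged from -0.036 to 0.040 with 1 library left out. The cause was not tested.

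Keeping sites within 100 kb of the gene's start left 1 of 2 annotated sites in the doxycycline list and 1 of 2 in the list of blebbistatin with doxycycline, and an FDR under 0.01 kept both in each. Counting by coordinates within 500 kb of any member, an alternative added after the data were seen, gave 2 sites for ATAC with blebbistatin, 2 for ATAC with Y27632, 2 for blebbistatin without doxycycline, 14 for doxycycline and 6 for blebbistatin with doxycycline. Among the members, Dio3 with blebbistatin (49 to 54 reads) and Dio2 with DMSO (56 to 69) had the fewest reads, and Tg with blebbistatin had 15 to 23. Site depth is unknown.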
